A study of Saccharomyces cerevisiae with 9 samples.

Results

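The vacuolar proton pump and the machinery of vacuole fusion were followed through 31 genes, chosen by name from the 7122 genes of the deposited table: 16 genes of the pump (8 of the V1 sector, 5 of the V0 sector and 3 assembly factors) and 15 genes of fusion (5 of the HOPS tether, 5 SNAREs, 3 for the Rab GTPase and its exchange factor, and 2 for SNARE disassembly). Of these, 29 were listed under the name used here, and VPS11 and VPS18 were listed as PEP5 and PEP3. No measured value entered the choice of names, but the names were picked with earlier results of these data known. The libraries hold poly(A) RNA of budding yeast, Saccharomyces cerevisiae, from a prototrophic CEN.PK background in log phase on minimal synthetic medium with 2% glucose. There were 3 strains: pah1Δ, which lacks PAH1, dgk1Δ, which lacks DGK1, and the wild type (WT). Each strain had 3 libraries, numbered as replicates, and no label states whether these were separate cultures. All p-values therefore measure only the spread between the samples at hand, part or all of which may be technical. How many clones each deletion strain came from is not given in the sources used here.

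The vacuolar ATPase pumps protons into the vacuole, the acidic storage and degradation compartment of yeast. Its V1 sector on the cytosolic face breaks down ATP, and its V0 sector in the membrane carries the protons, as a ring of proteolipid subunits turns against the a subunit. Vacuoles fuse with each other in ordered steps. The exchange factor Mon1-Ccz1 activates the Rab GTPase Ypt7, the HOPS complex tethers the membranes, SNARE proteins zip together across them, and Sec17 and Sec18 pull spent SNARE complexes apart. Pah1 is the phosphatidate phosphatase that makes diacylglycerol, and its activity is known to be needed for vacuole fusion. Dgk1, a diacylglycerol kinase, runs the opposite reaction. The comparisons ask how transcripts of the pump and of the fusion machinery differ between each deletion strain and WT, and between the deletion strains.

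The deleted genes matched the labels. PAH1 had 0 counts in all 3 pah1Δ libraries, 507 to 722 in dgk1Δ and 454 to 535 in WT, and DGK1 had 1038 to 1267 counts in pah1Δ, 1 to 2 in dgk1Δ and 1030 to 1502 in WT. Libraries held 9205454 to 12795803 counts over genes. In each library, the deviation from the other libraries of its strain was followed against gene length, across 5331 genes with a mean count of at least 100. The Spearman correlation with length was 0.327, -0.677 and 0.636 in pah1Δ replicates 1 to 3, -0.136, 0.534 and -0.427 in dgk1Δ replicates 1 to 3, and -0.742, 0.689 and 0.601 in WT replicates 1 to 3, where each value shares the library's depth and scaling. The steepest falls with length were those of WT replicate 1 and pah1Δ replicate 2. Over the 31 genes the correlation was -0.79 in pah1Δ replicate 2, -0.59 in dgk1Δ replicate 3 and -0.83 in WT replicate 1. The dgk1Δ libraries also stood apart over the left part of chromosome III, where 35 genes had a median log2 fold change of 1.03 over WT, and over the right end of chromosome IX, where 52 genes had a median of 0.92. None of the 31 genes lay in these stretches, whose bounds were chosen after the data were seen, but in dgk1Δ the loss of DGK1 and the raised stretches cannot be told apart.

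**Figure D1:**
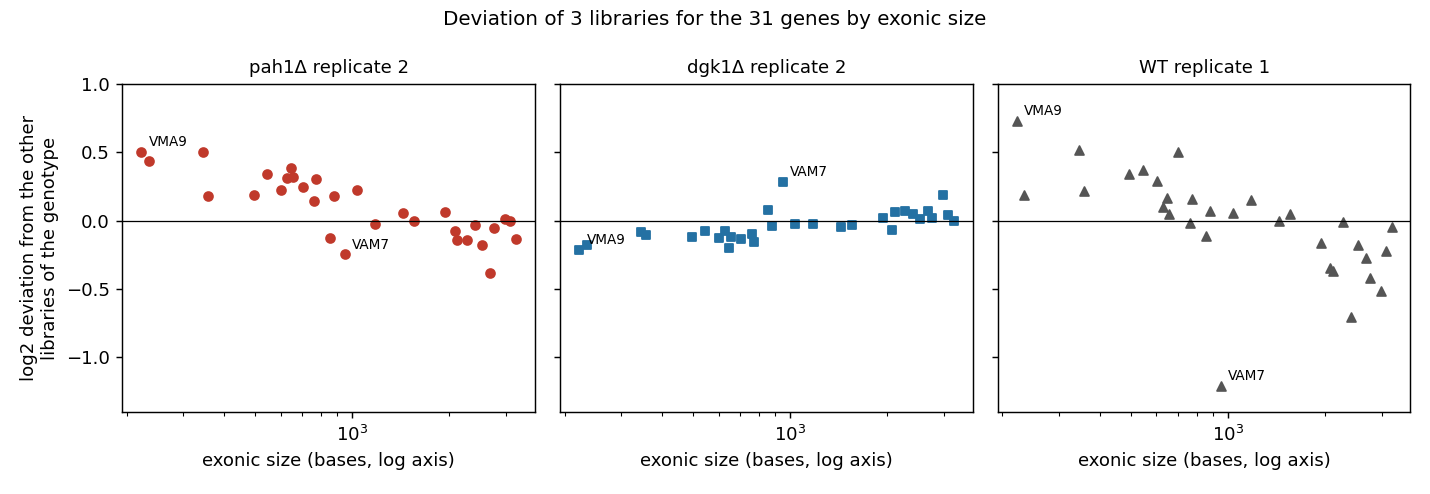
Log2 deviation of 1 library from the other libraries of its strain (vertical axis) for each of the 31 genes, against exonic size in bases (horizontal log axis), in pah1Δ replicate 2, dgk1Δ replicate 2 and WT replicate 1. The points fall with size in pah1Δ replicate 2 and WT replicate 1 and rise with it in dgk1Δ replicate 2, and WT replicate 1 holds the widest deviations, from -1.21 for VAM7 to 0.73 for VMA9.

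The plot of deviation against exonic size shows how far single members of the set were touched. In WT replicate 1 the 16 genes under 1000 bases had a median deviation of 0.18 and the 15 longer genes one of -0.18. VAM7, a SNARE of the vacuole, was lowest in that library at -1.21, and VMA9, a small membrane subunit of the pump, was highest at 0.73. In pah1Δ replicate 2 the corresponding medians were 0.27 and -0.03. The counts of called genes below are therefore also given without WT replicate 1 and pah1Δ replicate 2, singly and together.

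The promoters of the 4 genes called in every fit of pah1Δ against WT (VPH1, VMA7, NYV1 and MON1, below) are shown, because these genes carry the main differences of the set. Each runs from 250 bases before to 50 bases after the annotated start of translation, 5′ to 3′ on the gene's own strand (the minus strand for all 4), in genome build R64. VPH1 encodes the vacuolar a subunit of the pump, and its window is chrXV:830525-830824. VMA7 encodes a V1 subunit, and its window is chrVII:527280-527579. NYV1 encodes a SNARE, and its window is chrXII:327366-327665. MON1 encodes a subunit of the Ypt7 exchange factor, and its window is chrVII:276665-276964. Capitals mark the start codon and any match to the stress response element AGGGG, or CCCCT when read on the gene's own strand.
VPH1: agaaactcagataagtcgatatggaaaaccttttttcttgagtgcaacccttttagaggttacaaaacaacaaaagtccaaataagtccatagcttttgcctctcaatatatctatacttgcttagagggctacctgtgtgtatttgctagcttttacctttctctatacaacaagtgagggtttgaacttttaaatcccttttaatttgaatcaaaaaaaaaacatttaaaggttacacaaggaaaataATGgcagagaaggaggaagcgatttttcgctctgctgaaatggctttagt
VMA7: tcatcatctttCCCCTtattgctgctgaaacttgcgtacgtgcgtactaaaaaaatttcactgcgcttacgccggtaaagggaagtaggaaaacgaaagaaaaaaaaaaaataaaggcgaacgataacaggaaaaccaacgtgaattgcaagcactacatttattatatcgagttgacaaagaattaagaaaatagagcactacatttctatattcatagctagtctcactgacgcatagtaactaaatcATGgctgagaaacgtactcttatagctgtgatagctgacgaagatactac
NYV1: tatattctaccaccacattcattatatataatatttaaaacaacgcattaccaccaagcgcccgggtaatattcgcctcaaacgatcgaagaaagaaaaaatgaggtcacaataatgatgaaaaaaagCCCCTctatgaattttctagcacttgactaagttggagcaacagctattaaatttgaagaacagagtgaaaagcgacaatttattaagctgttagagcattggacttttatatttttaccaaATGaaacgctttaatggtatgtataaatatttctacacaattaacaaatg
MON1: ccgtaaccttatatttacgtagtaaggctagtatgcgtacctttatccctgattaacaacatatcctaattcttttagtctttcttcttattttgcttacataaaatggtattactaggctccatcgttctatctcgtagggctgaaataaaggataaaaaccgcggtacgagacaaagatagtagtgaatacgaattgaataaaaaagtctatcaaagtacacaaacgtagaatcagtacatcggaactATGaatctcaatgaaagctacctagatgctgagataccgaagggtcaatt

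The stress response element was searched for on both strands. It lay in the VMA7 window 239 bases and in the NYV1 window 122 bases before the start codon, and these letters are not in the VPH1 and MON1 windows. Among the 31 genes, 7 windows held it (VMA1, VMA4, VMA7, VMA13, NYV1, YPT7 and CCZ1), which is 22.6%, against 21.6% of the 6001 windows of the same length in the genome. The E-box CATGTG, the core bound by the Ino2-Ino4 activator of phospholipid genes, was in 3 of the 31 windows (VMA5, VPH2 and VTI1), 9.68%, against 6.93% of all windows. The E-box CACGTG, bound by the phosphate regulator Pho4, was in 0 of the 31 windows and in 2.92% of all windows. The windows of VPH1 and NYV1 follow a gene on the same strand (FSF1 at 484 bases and GIS3 at 314 bases), and those of VMA7 and MON1 lie between divergent genes (YGR021W at 302 bases and RPS2 at 902 bases). A match in a window is a description of its letters only.

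In WT, most pump genes had more transcript than most fusion genes. Levels are given as RPKM, which are TMM-scaled counts per kilobase of exon relative to library size. Dividing by length does not remove the trends with length of single libraries, so comparisons between genes of different length carry them. In WT the median level was 273 RPKM over the 16 pump genes and 27.6 RPKM over the 15 fusion genes, against 45.7 RPKM over all 6150 genes tested. VMA7, which encodes subunit F of V1, was highest at 617 ± 49.0 RPKM in pah1Δ, 766 ± 34.4 in dgk1Δ and 788 ± 71.65 in WT (SD, n = 3 each), and its WT level lay above 95.4% of tested genes. CCZ1, which encodes the partner of Mon1, was lowest at 13.1 ± 0.789 RPKM in pah1Δ, 13.9 ± 0.864 in dgk1Δ and 14.2 ± 2.23 in WT, and its WT level lay above 17.4% of tested genes. The order from high to low in WT was VMA7, VMA10, VMA2, VMA6, VMA11, VMA5, VPH1, VMA8, VMA1, YKT6, VMA13, VMA4, VMA21, YPT7, VMA9, NYV1, SEC17, VTI1, SEC18, VMA22, STV1, VPH2, VAM3, VPS16, VPS18, VPS11, VPS33, MON1, VPS41, VAM7 and CCZ1. The 5 HOPS genes lay within 20.5 to 27.6 RPKM on average in WT, with SDs of 2.38 to 7.17, so their order among themselves is not set by these data. VMA6 and VMA11, at 396 ± 10.6 and 392.1 ± 55.95 RPKM in WT, likewise differed by less than their spread. The same held for other neighbours in the order, such as VPH1 and VMA8 at 294 ± 21.3 and 288 ± 22.5 RPKM in WT. CCZ1 was lowest by its mean only, since VAM7 averaged 15.3 ± 6.23 RPKM in WT. The order is therefore one of means, and close neighbours in it are not told apart.

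**Figure D2:**
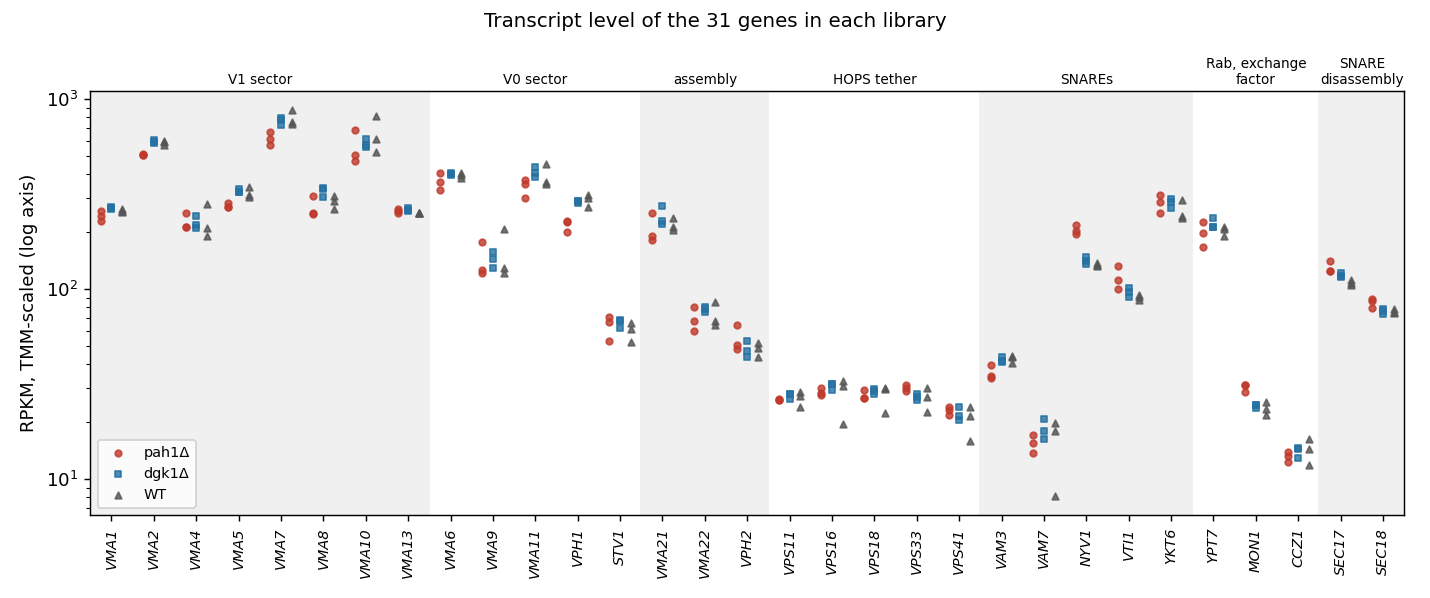
Transcript level in RPKM (vertical log axis) of each of the 31 genes in each of 9 libraries, grouped by role, with pah1Δ left, dgk1Δ in the middle and WT right within a gene. The V1 genes sit between about the level of VMA4 and that of VMA7, above the 5 HOPS genes in all libraries.

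Within V1, 3 genes had less transcript in pah1Δ than in WT: VMA7 (subunit F, part of the central shaft), VMA5 (subunit C, which leaves the pump when V1 and V0 come apart) and VMA2 (subunit B, the regulatory nucleotide-binding subunit). VMA7 had 612, 668 and 570.0 RPKM in pah1Δ, 775, 728 and 795 RPKM in dgk1Δ, and 869, 736 and 758 RPKM in WT. All 3 pah1Δ libraries lay below every dgk1Δ and every WT library. Its log2 fold change was -0.35 in pah1Δ against WT (SE 0.0859, adjusted p = 0.0107) and -0.31 in pah1Δ against dgk1Δ (SE 0.0859, adjusted p = 0.0215), by edgeR's quasi-likelihood test with Benjamini-Hochberg adjustment over all genes tested, as for all adjusted p-values here. In RNA from whole cultures, fewer cells with a transcript and less of it per cell cannot be told apart.

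VMA5 had 269.5, 270.3 and 282 RPKM in pah1Δ, 324, 323 and 335 RPKM in dgk1Δ, and 342, 311 and 305 RPKM in WT. The pah1Δ libraries again lay below all others, with a log2 fold change of -0.22 against WT (SE 0.0670, edgeR adjusted p = 0.0285) and -0.26 against dgk1Δ (SE 0.0670, edgeR adjusted p = 0.0164). VMA2 had 505, 508 and 514 RPKM in pah1Δ, 606, 585 and 592.5 RPKM in dgk1Δ, and 604, 575 and 596 RPKM in WT. Its groups did not overlap either, and the log2 fold change was -0.22 against WT (SE 0.0662, edgeR adjusted p = 0.0311) and -0.22 against dgk1Δ (SE 0.0662, edgeR adjusted p = 0.0303). Neither call against WT held in every setting. VMA5 was no longer called without pah1Δ replicate 1 or 2 (edgeR adjusted p = 0.101 and 0.0621) or with scaling by library size only (0.117). VMA2 was no longer called without pah1Δ replicate 1, 2 or 3 or WT replicate 3 (edgeR adjusted p = 0.106, 0.0567, 0.0596 and 0.0984) or with library size only (0.151). The log2 fold change with library size only was -0.13 for both genes. With only the 2 groups compared, VMA5 and VMA2 were not called either (edgeR adjusted p = 0.0913 and 0.108). The same held with a block for the replicate number (edgeR adjusted p = 0.0674 and 0.0774) and with limma on the FPKM values.

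The other 5 V1 genes did not pass the test in any of the 3 comparisons. These were VMA1, the catalytic subunit A, with a log2 fold change of -0.10 in pah1Δ against WT, VMA4, subunit E of a peripheral stalk (-0.02), VMA8, subunit D of the shaft (-0.10), VMA10, subunit G of a peripheral stalk (-0.24), and VMA13, subunit H (0.04). VMA8 had 252, 308 and 248 RPKM in pah1Δ, 336, 304 and 339.7 RPKM in dgk1Δ, and 309, 264.5 and 291 RPKM in WT. It had a log2 fold change of -0.28 in pah1Δ against dgk1Δ (SE 0.0980, edgeR adjusted p = 0.0621), and pah1Δ replicate 2 overlapped the dgk1Δ libraries. Without pah1Δ replicate 2 the difference was -0.39 and passed (edgeR adjusted p = 0.0121). VMA10 shows how the short genes moved with library: it had 505, 689 and 470.3 RPKM in pah1Δ, 574, 559.6 and 614.5 RPKM in dgk1Δ, and 816, 525 and 618 RPKM in WT. Its highest values in pah1Δ and in WT were those of pah1Δ replicate 2 and WT replicate 1. VMA1 and VMA4 each overlap a gene on the opposite strand (YDL185C-A with 1 to 15 counts and YOR331C with 260 to 374 counts), and the protocol describes no strand-marking step, so reads of VMA4 in particular are uncertain.

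The V0 sector held the largest fall of the set, in VPH1. Yeast has alternative a subunits: Vph1 sits in pumps of the vacuole, and Stv1 in pumps of the Golgi and endosomes. VPH1 (YOR270C, chromosome XV, 828052 to 830574, minus strand, no intron) had 225, 199.7 and 228 RPKM in pah1Δ, 291, 289 and 282 RPKM in dgk1Δ, and 269.7, 310.4 and 301 RPKM in WT. Every pah1Δ library lay below every library of the other strains. The log2 fold change was -0.43 in pah1Δ against WT (SE 0.0820, edgeR adjusted p = 0.00278), -0.40 in pah1Δ against dgk1Δ (SE 0.0819, edgeR adjusted p = 0.00485) and -0.03 in dgk1Δ against WT (SE 0.0817, edgeR adjusted p = 0.955). Both pah1Δ calls held in all 17 alternative settings.

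STV1 (YMR054W, chromosome XIII, 383303 to 385975, plus strand, no intron) had 70.9, 52.9 and 67.2 RPKM in pah1Δ, 67.95, 68.2 and 62.1 RPKM in dgk1Δ, and 52.7, 66.0 and 61.7 RPKM in WT. The strains overlapped in every comparison, and the log2 fold change was 0.08 in pah1Δ against WT (SE 0.117, edgeR adjusted p = 0.639) and 0.14 in dgk1Δ against WT (SE 0.117, edgeR adjusted p = 0.833). Its lowest pah1Δ and WT values came from pah1Δ replicate 2 and WT replicate 1. Within a library, VPH1 and STV1 have similar lengths, so the ratio of their deposited FPKM values was also computed. The ratio was 3.17, 3.77 and 3.39 in pah1Δ, 4.28, 4.23 and 4.53 in dgk1Δ, and 5.12, 4.71 and 4.88 in WT. Means were 3.45 ± 0.303 in pah1Δ, 4.35 ± 0.162 in dgk1Δ and 4.90 ± 0.206 in WT (SD, n = 3 each), and no strain overlapped another. The difference was -1.45 in pah1Δ minus WT, -0.55 in dgk1Δ minus WT and -0.90 in pah1Δ minus dgk1Δ. Each gave p = 0.1 in an exact two-sided permutation test, which is the smallest p that 3 libraries against 3 allow, so none can pass a threshold of 0.05.

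**Figure D3:**
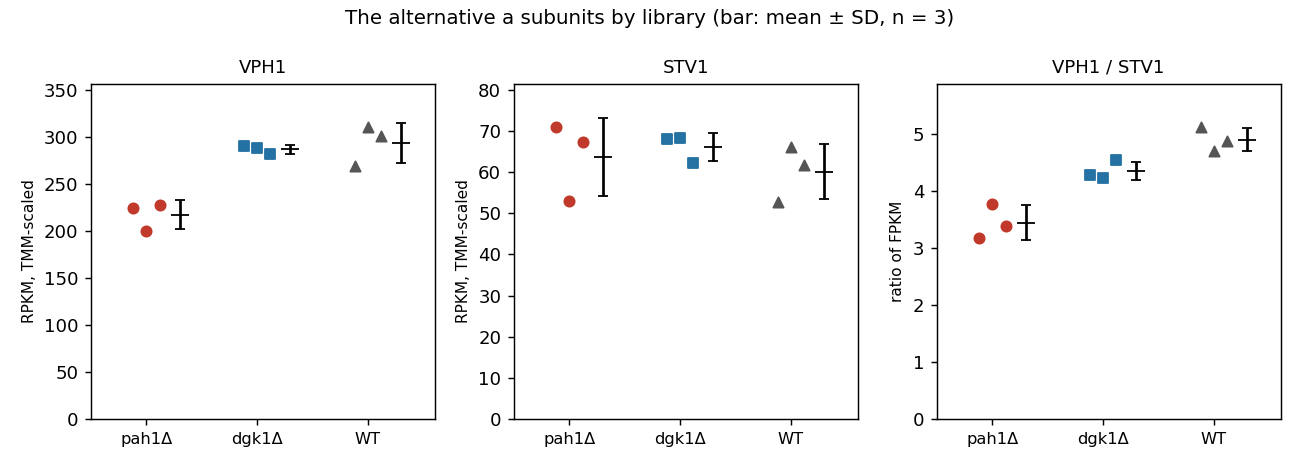
Levels of VPH1 and STV1 in RPKM and the VPH1 to STV1 ratio of FPKM (vertical axes) in each library of pah1Δ, dgk1Δ and WT (points), with mean ± SD beside them (n = 3). VPH1 lies at 199.7 to 228 RPKM in pah1Δ, below all other libraries, STV1 overlaps between strains, and the ratio has 3 separate ranges.

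The other V0 genes did not pass the test. VMA6 (subunit d, which couples the ring to the shaft) had a log2 fold change of -0.11 in pah1Δ against WT, VMA11 (a proteolipid of the ring) -0.19, and VMA9 (the small subunit e) -0.12. VMA11 had 357, 373 and 302 RPKM in pah1Δ, 437, 389 and 408 RPKM in dgk1Δ, and 457, 357 and 363 RPKM in WT. The pah1Δ and dgk1Δ libraries did not overlap, with a log2 fold change of -0.26 that missed the threshold (SE 0.112, edgeR adjusted p = 0.12), and the pah1Δ and WT libraries did overlap. The other proteolipid genes of the ring, which are not among the 31, did not pass the test either. VMA16 averaged 354 RPKM in pah1Δ, 417 in dgk1Δ and 443 in WT, with a log2 fold change of -0.32 in pah1Δ against WT (SE 0.113, edgeR adjusted p = 0.0526). VMA3 averaged 1084 RPKM in pah1Δ, 1163 in dgk1Δ and 1279 in WT, with a log2 fold change of -0.24 (SE 0.147, edgeR adjusted p = 0.256). VMA9 is the only member of the set on chromosome III, and the 10 genes on either side of it had a median log2 fold change of -0.04 in dgk1Δ against WT, with 0 of the 20 called. It overlaps YCL007C on the opposite strand, which had 119 to 244 counts beside 259 to 541 for VMA9, so its values are uncertain.

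The 3 assembly factors work in the endoplasmic reticulum, where Vma21, Vma22 and Vph2 help to put V0 together. None passed the test: the log2 fold changes in pah1Δ against WT were -0.07 for VMA21 (SE 0.134), -0.07 for VMA22 (SE 0.131) and 0.17 for VPH2 (SE 0.129). VMA21 averaged 207 ± 38.1 RPKM in pah1Δ, 240.4 ± 28.0 in dgk1Δ and 217 ± 17.2 in WT (SD, n = 3 each), and its strains overlapped. VPH2 overlaps YKL118W on the opposite strand, which had only 1 to 10 counts.

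Of the 15 fusion genes, 4 had more transcript in pah1Δ than in WT, and NYV1 showed the largest rise. NYV1 (YLR093C, chromosome XII, 326513 to 327415, minus strand, with an intron of 141 bases) encodes the R-SNARE of vacuole fusion, which sits in the vacuolar membrane and pairs with the Q-SNAREs Vam3, Vti1 and Vam7. It had 201.3, 217 and 193 RPKM in pah1Δ, 141, 134.5 and 146 RPKM in dgk1Δ, and 133, 132.5 and 137 RPKM in WT. The pah1Δ libraries lay far above all others, while dgk1Δ and WT overlapped. The log2 fold change was 0.60 in pah1Δ against WT (SE 0.0739, edgeR adjusted p = 0.000164), 0.54 in pah1Δ against dgk1Δ (SE 0.0736, edgeR adjusted p = 0.00037) and 0.07 in dgk1Δ against WT (SE 0.0741, edgeR adjusted p = 0.896). Both pah1Δ calls held in all 17 alternative settings.

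VTI1 encodes a Q-SNARE that also serves the Golgi and endosomes. It had 100.2, 131 and 111 RPKM in pah1Δ, 96.3, 90.8 and 101 RPKM in dgk1Δ, and 92.3, 90.6 and 87.9 RPKM in WT. All pah1Δ libraries lay above all WT libraries, and 1 of them lay below dgk1Δ replicate 3. The log2 fold change was 0.34 in pah1Δ against WT (SE 0.101, edgeR adjusted p = 0.0291) and 0.25 in pah1Δ against dgk1Δ (SE 0.101, edgeR adjusted p = 0.103). The highest value came from pah1Δ replicate 2, without which the difference from WT was 0.23 and was not called (edgeR adjusted p = 0.0848). The call was also lost without pah1Δ replicate 3 or WT replicate 2 or 3 (edgeR adjusted p = 0.0546, 0.0596 and 0.0884). Nor did it hold with only the 2 groups compared or with a block for the replicate number (edgeR adjusted p = 0.0734 and 0.063).

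The other SNARE genes did not pass the test. VAM3, the vacuolar syntaxin, had 34.7, 34.1 and 39.95 RPKM in pah1Δ, 41.1, 43.9 and 42.0 RPKM in dgk1Δ, and 40.7, 44.1 and 43.8 RPKM in WT. All pah1Δ libraries lay below all others, in the direction opposite to its partner NYV1, with a log2 fold change of -0.24 against WT (SE 0.0906, edgeR adjusted p = 0.07). The VAM3 difference passed without WT replicate 1 (edgeR adjusted p = 0.0389) and without pah1Δ replicate 3 (0.0336). VAM7, a soluble SNARE that binds phosphoinositides, had 15.4, 13.7 and 17.1 RPKM in pah1Δ, 17.9, 20.8 and 16.2 RPKM in dgk1Δ, and 8.15, 17.9 and 19.7 RPKM in WT. The low WT value is that of WT replicate 1, which gave 91 counts, the fewest of any member in any library, and the log2 fold change of 0.03 in pah1Δ against WT had an SE of 0.267. YKT6, a lipid-anchored R-SNARE that can stand in for Nyv1, averaged 283 ± 31.4 RPKM in pah1Δ, 283 ± 15.1 in dgk1Δ and 258 ± 30.8 in WT (SD, n = 3 each), with a log2 fold change of 0.13 in pah1Δ against WT (SE 0.105, edgeR adjusted p = 0.381).

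**Figure D4:**
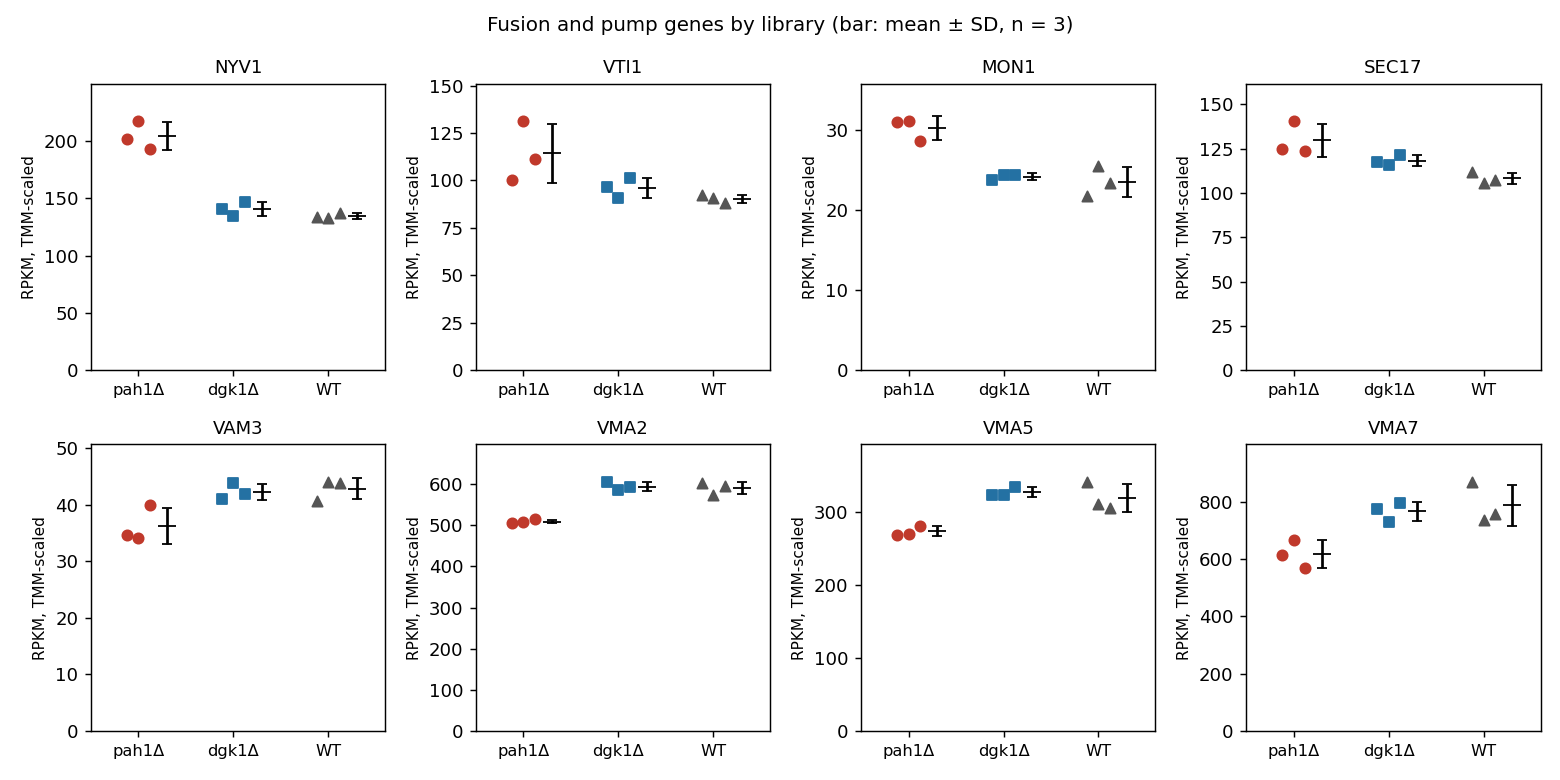
Level in RPKM (vertical axes from 0) of NYV1, VTI1, MON1, SEC17, VAM3, VMA2, VMA5 and VMA7 in each library of pah1Δ, dgk1Δ and WT (points), with mean ± SD beside them (n = 3). The pah1Δ libraries lie above the WT libraries for NYV1, VTI1, MON1 and SEC17 and below them for VAM3, VMA2, VMA5 and VMA7.

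Of the Rab and its exchange factor, MON1 rose in pah1Δ while its partner and its target did not pass the test. MON1 (YGL124C, chromosome VII, 274780 to 276714, minus strand, no intron) had 31.02, 31.1 and 28.6 RPKM in pah1Δ, 23.7, 24.4 and 24.4 RPKM in dgk1Δ, and 21.7, 25.5 and 23.3 RPKM in WT. The pah1Δ libraries lay above all others. The log2 fold change was 0.36 in pah1Δ against WT (SE 0.0833, edgeR adjusted p = 0.00778), a call that held in all 17 alternatives, and 0.32 in pah1Δ against dgk1Δ (SE 0.0829, edgeR adjusted p = 0.0158). CCZ1 had a log2 fold change of -0.11 in pah1Δ against WT (SE 0.122, edgeR adjusted p = 0.555), and the whole difference between the pah1Δ and WT means, 13.1 and 14.2 RPKM, was smaller than the WT SD of 2.23. YPT7 had 197, 225 and 166.5 RPKM in pah1Δ, 212, 212 and 235 RPKM in dgk1Δ, and 212, 189 and 206 RPKM in WT. Its strains overlapped, with a log2 fold change of -0.05 in pah1Δ against WT (SE 0.108, edgeR adjusted p = 0.786) and 0.12 in dgk1Δ against WT (SE 0.107, edgeR adjusted p = 0.857).

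None of the 5 HOPS genes passed the test in any comparison. VPS33, whose product is the Sec1/Munc18 protein that binds SNAREs, had a log2 fold change of 0.19 in pah1Δ against WT (SE 0.104, edgeR adjusted p = 0.2), VPS41, whose product binds Ypt7, had one of 0.17 (SE 0.135, edgeR adjusted p = 0.39), and the core subunits VPS11, VPS16 and VPS18 lay at -0.03, 0.06 and 0.02. The VPS33 difference passed without WT replicate 2 (edgeR adjusted p = 0.0495). VPS16 shows how 1 library stood apart in these long genes: it had 27.5, 28.2 and 30.2 RPKM in pah1Δ, 31.6, 31.4 and 29.2 RPKM in dgk1Δ, and 19.4, 32.7 and 30.7 RPKM in WT, the low value being WT replicate 1. Without that library the median of the 5 HOPS genes in pah1Δ against WT was -0.10 in place of 0.06. VPS39, the other HOPS subunit that binds Ypt7 and not one of the 31 genes, averaged 20.8 RPKM in pah1Δ, 19.3 in dgk1Δ and 19.7 in WT.

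SNARE disassembly genes were both higher in every pah1Δ library than in every WT library, though 1 of the 2 passed. SEC17, the yeast alpha-SNAP, had 125, 140.5 and 124 RPKM in pah1Δ, 117, 116 and 122 RPKM in dgk1Δ, and 112, 105 and 107.5 RPKM in WT. The 3 strains formed separate ranges, with dgk1Δ between the others. The log2 fold change was 0.26 in pah1Δ against WT (SE 0.0765, edgeR adjusted p = 0.0262) and 0.13 in dgk1Δ against WT (SE 0.0766, edgeR adjusted p = 0.734), and 0.13 in pah1Δ against dgk1Δ (SE 0.0762, edgeR adjusted p = 0.238). The SEC17 call was lost without pah1Δ replicate 1 or 2 or WT replicate 2 or 3 (edgeR adjusted p = 0.0525, 0.0758, 0.0736 and 0.0811). Nor did it hold with only the 2 groups compared or with a block for the replicate number (edgeR adjusted p = 0.0835 and 0.0674). SEC18, the ATPase NSF, had 86.4, 78.9 and 88.1 RPKM in pah1Δ, 73.8, 78.8 and 76.1 RPKM in dgk1Δ, and 75.8, 78.7 and 74.4 RPKM in WT, with a log2 fold change of 0.15 in pah1Δ against WT (SE 0.0684, edgeR adjusted p = 0.137).

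Counted over the whole set, pah1Δ differed from WT in 8 of 31 genes (25.8%), 4 higher and 4 lower, against 29.2% of all 6150 genes tested, 16.6% higher and 12.6% lower. The share of the set was therefore near the background. The 4 lower genes (VPH1, VMA7, VMA5 and VMA2) were all pump genes, where 0 of 16 rose, and the 4 higher genes (NYV1, MON1, SEC17 and VTI1) were all fusion genes, where 0 of 15 fell. The median log2 fold change was -0.10 over the pump genes, 13 of which were below 0, and 0.13 over the fusion genes, 11 of which were above 0, against 0.00 over all genes tested. The median size of the log2 fold change, without its sign, was 0.13 over the 31 genes and 0.22 over all genes tested. Libraries of pah1Δ and WT did not overlap for 10 of the 31 genes, these 8 with SEC18 and VAM3, against 39.4% of all genes tested. That count was 18 without WT replicate 1, against 60.8% of all genes, and 16 without pah1Δ replicate 2, against 50.1%.

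These counts depended on single libraries, and the share over all genes moved with them. The number called was 5 without pah1Δ replicate 1, against 19.8% of all genes, 4 without pah1Δ replicate 2, against 26.2%, and 5 without WT replicate 3, against 21.9%. Without WT replicate 1 it was 9 (29.0%), 4 higher and 5 lower, as VAM3 was added, against 39.9% of all genes. In that fit the fusion median was 0.01, with 8 genes above and 7 below 0, and the pump median was -0.05, with 11 genes below 0. The pump median was -0.21 without pah1Δ replicate 2, -0.04 without pah1Δ replicate 3 and -0.16 without WT replicate 2. Without both WT replicate 1 and pah1Δ replicate 2, a fit added after seeing the data, it was -0.13, and the fusion median was 0.01. The called genes of that fit were 5 higher and 6 lower, with SEC18, VMA10 and VMA6 added to the same 8 genes, against 43.7% of all genes. With the trend with gene length removed from every library, the same 8 genes were called, against 41.5% of all genes. With scaling by library size only, which moved the median of all genes to 0.09, the pump median was -0.01 and the fusion median 0.23.

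**Figure D5:**
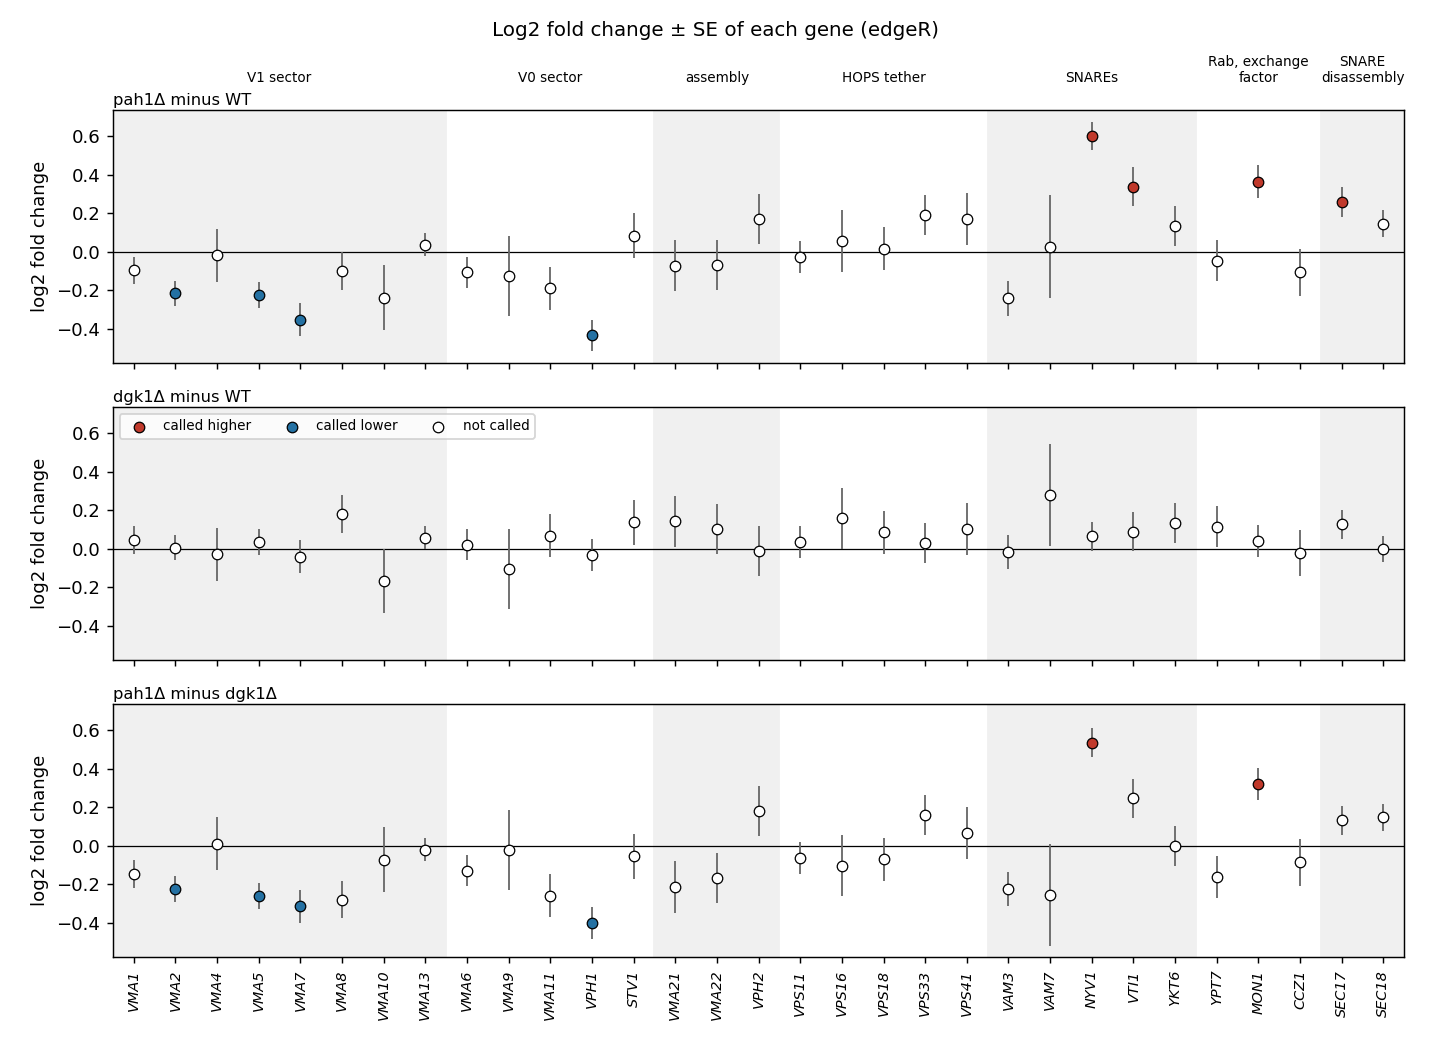
Log2 fold change ± SE of each of the 31 genes (vertical axes) for pah1Δ over WT (top), dgk1Δ over WT (middle) and pah1Δ over dgk1Δ (bottom), grouped by role, with filled points for genes called by edgeR at an adjusted p under 0.05. Called genes are NYV1, VTI1, MON1, SEC17, VPH1, VMA7, VMA5 and VMA2 against WT, none in dgk1Δ minus WT, and 6 in pah1Δ minus dgk1Δ.

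In dgk1Δ against WT no member passed the test, 0 of 31, against 1.92% of all genes tested. At an unadjusted p under 0.05, 0 of 31 genes passed, against 8.91% of all genes, and DESeq2 and limma on log2(FPKM + 1) also called 0. Log2 fold changes ran from -0.17 for VMA10 to 0.28 for VAM7, with a median of 0.05 and SEs of 0.0597 to 0.264, and the smallest edgeR adjusted p was 0.674, for VMA8. Libraries did not overlap for 3 genes, VMA1, VMA13 and SEC17, all higher in dgk1Δ, against 16.3% of all genes tested. Without WT replicate 1 there were 13 such genes, 12 higher and 1 lower, against 39.8% of all genes. These 3 differences were small: VMA1 averaged 267 ± 2.35 RPKM in dgk1Δ and 258 ± 5.67 in WT, and VMA13 averaged 261 ± 5.83 RPKM in dgk1Δ and 251 ± 0.888 in WT (SD, n = 3 each). In the fit of all libraries the median log2 fold change was 0.03 over the pump genes, 10 of which were above 0. Over the fusion genes it was 0.09, with 12 above and 3 below 0. Without WT replicate 1 the fusion median was -0.03, with 5 genes above and 10 below 0. The count called without that library was again 0, against 2.69% of all genes. Without both WT replicate 1 and pah1Δ replicate 2, VMA8 was called higher in dgk1Δ (log2 fold change 0.23, edgeR adjusted p = 0.036), against 6.03% of all genes.

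Set directly against dgk1Δ, pah1Δ differed in 6 of 31 genes (19.4%), against 25.1% of all genes tested. NYV1 and MON1 were higher, against 14.2% of all genes called higher, and VPH1, VMA7, VMA5 and VMA2 were lower, against 10.8% called lower. VTI1 and SEC17 did not pass in this comparison. The median log2 fold change was -0.16 over the 16 pump genes, 14 of which were below 0. Over the 15 fusion genes it was -0.0001, with 7 above and 8 below 0. The fusion genes as a group thus did not lean upward against dgk1Δ as they did against WT. With the trend with gene length removed from every library, 3 genes were called higher and 6 lower, against 36.9% of all genes. VTI1, VMA8 and VMA11 were added in that fit (edgeR adjusted p = 0.0372, 0.0021 and 0.0044). Libraries did not overlap for 12 of the 31 genes, 5 higher and 7 lower in pah1Δ, against 48.6% of all genes tested, and for 19 without pah1Δ replicate 2, against 61.3%. The comparison shares the pah1Δ libraries with the one against WT, so the calls are not separate evidence. The VPH1 and NYV1 calls held in all 17 alternatives. Without single libraries, VMA2 was lost in all 6 cases (edgeR adjusted p up to 0.119). VMA5 was lost without pah1Δ replicate 1 or dgk1Δ replicate 1, 2 or 3 (0.0690, 0.0505, 0.0506 and 0.0905). VMA7 was lost without pah1Δ replicate 1 or 3 or dgk1Δ replicate 1 or 3 (0.0753, 0.0786, 0.0739 and 0.105). MON1 was lost without pah1Δ replicate 1 or dgk1Δ replicate 1 or 2 (0.0659, 0.0641 and 0.0547). The number called was 2 without pah1Δ replicate 1 or dgk1Δ replicate 1, against 16.6% and 16.8% of all genes, and 3 without dgk1Δ replicate 2 or 3, against 16.6% each. It was 7 without pah1Δ replicate 2, against 21.5%. Without both WT replicate 1 and pah1Δ replicate 2, with all dgk1Δ libraries kept, it was 15 (48.4%), against 42.6% of all genes.

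Other genes of the same pathways gave the surroundings of the set in pah1Δ against WT. Their lists were made by role, but with earlier results of these data known, so their counts are not an unbiased background. Over all genes tested, 16.6% were called higher and 12.6% lower. Of 9 other pump genes, RAV2 of the RAVE assembly complex was higher and PKR1, a pump assembly factor, was lower. PKR1 averaged 126.5 ± 12.8 RPKM in pah1Δ and 188 ± 39.6 in WT (SD, n = 3 each), a log2 fold change of -0.57 (SE 0.138, edgeR adjusted p = 0.0105). The RAV2 difference, 0.30 (SE 0.0932, edgeR adjusted p = 0.0356), is uncertain, since the gene overlaps YDR203W. The RAV2 call was lost without pah1Δ replicate 1 or 2 or WT replicate 2 or 3 (edgeR adjusted p = 0.0672, 0.108, 0.0879 and 0.122). Nor did it hold with RLE factors, only the 2 groups compared or a replicate block (edgeR adjusted p = 0.053, 0.0857 and 0.0702), or with DESeq2 (adjusted p = 0.056). Of 8 other fusion genes, 3 rose and 0 fell. The counts were 3 and 1 without WT replicate 1, against 39.9% of all genes called, and 3 and 0 without pah1Δ replicate 2, against 26.2%. PBI2, a proteinase B inhibitor that is also part of a fusion factor, averaged 1548 ± 165 RPKM in pah1Δ and 518 ± 119.5 in WT, a log2 fold change of 1.58 (SE 0.149, edgeR adjusted p = 2.68e-05). GYP7, which switches Ypt7 off, averaged 60.7 ± 2.86 RPKM in pah1Δ and 31.6 ± 5.25 in WT, a log2 fold change of 0.95 (SE 0.121, edgeR adjusted p = 0.000226). NEM1, the catalytic subunit of the phosphatase that activates Pah1, averaged 50.6 ± 1.16 RPKM in pah1Δ and 36.1 ± 2.49 in WT, a log2 fold change of 0.49 (SE 0.0810, edgeR adjusted p = 0.00127).

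The endosomal counterparts of the fusion genes had 4 of 11 called (36.4%), all higher in pah1Δ than in WT, against 29.2% of all genes called and 16.6% called higher. Without pah1Δ replicate 2 there were 3, against 26.2% of all genes called, and without WT replicate 1 there were 4, against 39.9%. PEP12, the endosomal syntaxin, averaged 155 ± 17.6 RPKM in pah1Δ and 84.3 ± 2.44 in WT, a log2 fold change of 0.88 (SE 0.0891, edgeR adjusted p = 4.2e-05), whereas its vacuolar counterpart VAM3 had -0.24. MUK1, an exchange factor for endosomal Rabs, had a log2 fold change of 0.54 (SE 0.105, edgeR adjusted p = 0.0033), VPS21, an endosomal Rab, one of 0.29 (SE 0.0846, edgeR adjusted p = 0.0249), and VPS45, an endosomal Sec1/Munc18 protein, one of 0.26 (SE 0.0738, edgeR adjusted p = 0.0235). The VPS21 call was lost without pah1Δ replicate 1 or 2 or WT replicate 2 or 3 (edgeR adjusted p = 0.0725, 0.0703, 0.0896 and 0.0974). The VPS45 call was lost without pah1Δ replicate 1 or 3 or WT replicate 3 (edgeR adjusted p = 0.0672, 0.0748 and 0.0761). With only the 2 groups compared, neither VPS21 nor VPS45 was called (edgeR adjusted p = 0.0672 and 0.0817). The same held with a block for the replicate number (edgeR adjusted p = 0.0521 and 0.0621). Of the 4 AP-3 adaptor genes, which serve a direct route to the vacuole, 0 passed, and 1 of 9 phosphoinositide enzyme genes did: FIG4, with a log2 fold change of 0.27 (SE 0.0740, edgeR adjusted p = 0.0181), overlaps YNL324W and is uncertain. The FIG4 call was lost without pah1Δ replicate 1 or WT replicate 3 (edgeR adjusted p = 0.0651 and 0.0512). Nor did it hold with only the 2 groups compared or with a block for the replicate number (edgeR adjusted p = 0.0641 and 0.0501).

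Of 13 vacuolar hydrolase genes, 6 rose and 1 fell in pah1Δ against WT, with a median log2 fold change of 0.41, against 16.6% of all genes called higher and 12.6% lower. Without WT replicate 1 there were 6 higher and 0 lower with a median of 0.24, against 39.9% of all genes called in that fit. Without pah1Δ replicate 2 there were 7 higher and 0 lower with a median of 0.51, against 26.2%. AMS1, the alpha-mannosidase, averaged 48.9 ± 2.99 RPKM in pah1Δ and 15.5 ± 1.60 in WT, a log2 fold change of 1.66 (SE 0.102, edgeR adjusted p = 1.64e-06). PRB1, proteinase B, had a log2 fold change of 1.29 (SE 0.108, edgeR adjusted p = 1.29e-05), PEP4, proteinase A, one of 0.92 (SE 0.1004, edgeR adjusted p = 7.18e-05), and LAP4, aminopeptidase I, one of 0.91 (SE 0.0668, edgeR adjusted p = 4.3e-06). Of 25 vacuolar transporter genes, 6 rose and 5 fell, which is 44.0% called, against 29.2% of all genes. There were 8 higher and 7 lower without WT replicate 1, against 39.9% of all genes called in that fit. Without pah1Δ replicate 2 there were 6 higher and 3 lower, against 26.2%. The calcium pump PMC1 (0.59) and the ABC transporter VMR1 (0.82) were higher, and the zinc transporter ZRC1 (-0.57) and the amino acid transporter YPQ1 (-0.54) were lower, by log2 fold change, with edgeR adjusted p-values of 0.000159, 0.000903, 0.000222 and 0.000803. In dgk1Δ against WT, 0 genes of these 7 lists were called by edgeR, against 1.92% of all genes tested. At an unadjusted p under 0.05 there were 3 of the 25 transporter genes and at most 1 gene of each other list. The share over all genes was 8.91%.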

How the data were processed

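The deposited table held whole-number counts per gene, 1 column per library and not normalized per the file headers and values, and FPKM values computed by the authors. Per the submitters' processing notes, HISAT2 2.2.1, HTSeq 0.6.1 and genome build R64 were used. The sources used here do not give the strand setting or how multiply mapped reads were handled. Left out were 4 empty lines. Of 7122 gene identifiers, 6045 matched the reference annotation of build R64, among them all 31 genes of the set with the same position.

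Counts were fitted in R 4.3.3 with edgeR 4.0.16: filterByExpr kept 6150 genes, among them all 31, TMM factors scaled the 9 libraries, and a single quasi-likelihood model gave each genotype its mean (6 residual degrees of freedom, with a common biological coefficient of variation of 0.106). Genes were called where the p-value, adjusted by Benjamini-Hochberg over all genes tested, was under 0.05, whatever the fold. The SE was taken from the fold change and its F statistic (log2 fold change over root F). RPKM values are TMM-scaled counts per exonic kilobase relative to library size. The fit was also run on simulated counts with a single common spread and no trend with gene length. That run cannot show how the calls fare under the trends seen in these libraries. Total counts were 9205454 to 12795803 per library, and counts of the 31 genes ran from 91 to 11596. Replicate libraries differed by more than sampling noise (chi-square per degree of freedom 3.61 to 55.1), so all 9 were counted. The ratio of VPH1 to STV1 used the FPKM values and an exact two-sided permutation test.

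The 31 genes, the roles and the lists of other genes were chosen with earlier results of these data known. All 79 other genes were found, 3 by a synonym. Values per library were given for genes called in any comparison, the 12 smallest adjusted p-values, STV1 and YPT7, and up to 4 called genes of each other list were named by smallest adjusted p. VMA10, VAM7 and VPS16 were given per library after their values were seen. Promoters were read from the R64 reference genome.

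Other settings tried were scaling by RLE factors or by library size only, no filter on low counts or a floor of 10 on the mean CPM, fits of only the 2 groups compared, a block for the replicate number, each library left out in turn, removal of the trend with gene length, DESeq2 1.42.0, and limma 3.58.1 on log2(FPKM + 1) and log2(FPKM + 0.1). Leaving out WT replicate 1 and pah1Δ replicate 2 together was chosen after seeing the data.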

Additional observations from a re-analysis of the deposited data

How the results depend on the processing

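In pah1Δ minus WT all 8 called genes kept their direction in all 17 alternatives, and 4 (VPH1, VMA7, NYV1 and MON1) stayed called in all of them. The number of genes called lower was 2 in place of 4 with library size only and with limma on log2(FPKM + 1) and log2(FPKM + 0.1). In these fits the number called over all genes stayed near the 1798 of the main fit. The median log2 fold change of all 31 genes, -0.03, was 0.0605 with library size only, 0.0637 and 0.0661 with the FPKM fits, and -0.0884 without both WT replicate 1 and pah1Δ replicate 2. With only the 2 groups compared, 4 genes were called, 2 higher and 2 lower, and fewer of all genes were called as well. Leaving out 1 replicate gave 4 to 9 called genes, 2 to 4 higher and 2 to 5 lower. Over all genes, 1220 to 2467 were called in those fits in place of 1798. In dgk1Δ minus WT the count was 0 in every alternative except without both of these libraries, where it was 1, called higher, with 372 of all genes called in place of 118. The median there was 0.0705 with library size only and 0.0716 and 0.0718 with the FPKM fits, against 0.05. In pah1Δ minus dgk1Δ, leaving out 1 replicate gave 2 to 7 called genes, 1 to 2 higher and 1 to 5 lower, with 1024 to 1331 of all genes called in place of 1542. Without WT replicate 1 and pah1Δ replicate 2 together, 15 were called, 4 higher and 11 lower, with 2629 of all genes. The cause of these shifts was not tested. The VPH1 to STV1 differences kept their sign in every setting tried, but this outcome was fixed in advance. The strains had separate ranges, so leaving out a library could not reverse a sign, and scaling does not alter a ratio within a library.

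Deviations of same-numbered libraries correlated at -0.312, -0.507 and 0.359 between pah1Δ and WT. They correlated at -0.0428, -0.372 and -0.251 between pah1Δ and dgk1Δ, and at -0.00511, 0.344 and -0.294 between dgk1Δ and WT. The largest value between strains, 0.598, was that of pah1Δ replicate 2 with WT replicate 1, both of which fell with gene length. Trends with length enter such values, so they cannot tell whether replicate numbers pair the libraries. With the replicate block 4 genes were called in pah1Δ minus WT, 2 higher and 2 lower, 0 in dgk1Δ minus WT and 5 in pah1Δ minus dgk1Δ. Over all genes, fewer were also called in pah1Δ minus WT with this block than in the main fit.

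Precision varied between genes: SEs of the 31 log2 fold changes were 0.0597 to 0.267 in pah1Δ minus WT, widest for VAM7, which had the fewest counts. A gene that missed the threshold is not shown to be the same in both strains.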
